A study of Mus musculus with 6 samples.

Results

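The CXCR2 ligands, the neutrophil receptors and the genes read with them were followed in ectopic endometrial lesions of mice, with and without Dnmt3a in the transplanted tissue. The genes were taken by name and are 10 of the 56884 counted in each lesion: the ligands Cxcl1, Cxcl2, Cxcl3, Cxcl5 and Ppbp, the receptors Cxcr2 and Csf3r, the granulocyte growth factor Csf3, and S100a8 and S100a9. All 10 had enough counts to be tested. The donors were 8-week-old females that were either Dnmt3a f/f (control, WT, n = 3 lesions) or Dnmt3a f/f:PR-Cre/+ (KO, n = 3 lesions), and they had received estradiol before their uteri were taken. Every recipient was a wild-type female of the same strain background, C57BL/6J, with an estrogen pellet. The labels describe injection of uterine fragments into the peritoneal cavity and collection at 4 weeks, while the study's methods describe fragments sutured to the mesenteric membrane and an earlier day of collection. Cre acts only in cells that express the progesterone receptor, and cells of the recipient, blood cells among them, kept Dnmt3a in both groups. The RNA came from whole lesions, so fewer cells of a type and less RNA per cell cannot be told apart.

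CXCR2 is a chemokine receptor that draws neutrophils out of the blood and along a gradient of its ligands. In the mouse the ligands include Cxcl1 (KC), Cxcl2 (MIP-2) and Cxcl3, small chemokines that epithelial cells, fibroblasts, macrophages and neutrophils themselves release after stimulation by IL-1, TNF or IL-17. Cxcl5 is made mainly by epithelial cells, and Ppbp encodes the precursor of a ligand stored in platelets. Csf3 encodes G-CSF, which drives the production of neutrophils in bone marrow and acts through the receptor encoded by Csf3r. S100a8 and S100a9 form calprotectin, an abundant protein pair of the neutrophil cytoplasm. Endometriotic lesions are known to hold neutrophils and to release CXCR2 ligands.

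The ligand genes lie together on chromosome 5 in the order Cxcl5, Ppbp, Cxcl3, Cxcl1 and Cxcl2, with the platelet factor gene Pf4 between Ppbp and Cxcl3. Of the 10 genes, 8 had a promoter window (250 bases before to 50 bases after the start of the gene) in the RefSeq table of GRCm38.p6. Cxcl5 and Csf3 are named only. The windows of Cxcl1, Cxcl2 and Cxcl3 are shown because these genes share a stretch of upstream bases, which is printed in capitals. Each line gives the bases from 150 to 31 before the start of the gene.
Cxcl1, chr5:90891095-90891214, plus strand: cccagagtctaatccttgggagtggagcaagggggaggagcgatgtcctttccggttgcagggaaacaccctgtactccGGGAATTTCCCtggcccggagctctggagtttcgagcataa
Cxcl2, chr5:90903749-90903868, plus strand: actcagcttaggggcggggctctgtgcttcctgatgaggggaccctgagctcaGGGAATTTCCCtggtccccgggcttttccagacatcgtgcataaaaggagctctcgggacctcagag
Cxcl3, chr5:90785951-90786070, plus strand: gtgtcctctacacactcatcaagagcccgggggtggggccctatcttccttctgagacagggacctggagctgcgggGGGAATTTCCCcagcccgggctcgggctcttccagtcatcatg
The capitals, GGGAATTTCCC, are the longest run that the 250 upstream bases of Cxcl1, Cxcl2 and Cxcl3 have in common. It is a sequence of the kappa B type, the kind of site that NF-kappa B proteins bind. It began 71 bases before the start of Cxcl1, 97 before that of Cxcl2 and 73 before that of Cxcl3. The run was found in 14 of the 32851 windows in the table (0.0426%). Of the 8 windows of the genes described here, only the 3 that it was taken from held it. That count of 3 was fixed by the way the run was chosen, so it is no measure of enrichment. The match was searched as these 11 letters on both strands, and it describes the sequence, not binding in these lesions.

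The libraries held 45370342 to 57239184 counts, and no pair of them was alike enough to be 1 library deposited more than once. In what follows, the 3 values of a group are those of its replicates 1, 2 and 3, in that order. Dnmt3a was measured at 52.7, 43.9 and 51.7 CPM (counts scaled to library size with TMM factors) in the WT lesions against 30.3, 33.5 and 36.2 CPM in the KO lesions. Its log2 fold change was -0.57 ± 0.14 (SE), with an adjusted p of 0.321 by edgeR. Markers of glandular epithelium and of endometrial stroma, the labelled tissue, had summed levels of 1498 to 2867 and 715 to 928 CPM over the 6 lesions, although Foxa2, a factor of uterine glands, had 0 counts in KO replicate 3. WT replicate 2 stood apart in immune and squamous genes. It held 2782 CPM of 16 neutrophil markers that are not among the 10 genes, against 84.9 and 127 CPM in WT replicates 3 and 1 and 40.2 to 116 CPM in KO. Squamous epithelial markers summed to 158 CPM in that lesion and to 13.3 to 29.2 CPM in the other 5. WT replicates 1 and 3 held 23772 and 28576 CPM of skeletal muscle genes, against 2.72 to 14.0 CPM in the other 4 lesions. B and plasma cell markers summed to 749 CPM in WT replicate 2 and to 154 to 284 CPM in the other 5 lesions. The part of these differences in the results was not tested.

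A total of 6 of the 10 genes (Cxcl1, Cxcl3, Csf3r, S100a8, S100a9 and Csf3) were lower in KO lesions by the threshold of the study, an unadjusted p under 0.05 with a log2 fold change below -1 (where 5.85% of all 18177 genes tested passed in that direction). None of the 10 was higher, where 3.1% of all genes were. After Benjamini-Hochberg adjustment over all tested genes, 0 of the 10 genes had an adjusted p under 0.05 in edgeR, and 1 gene of 18177 did (0.0055%). DESeq2 gave no p to 6 of the 10 genes, since single lesions passed its limit of influence on the fit, and of the other 4 it called Cxcl1 and Csf3 lower after adjustment, where 3.9% of all genes were called. Without WT replicate 2, edgeR called 0 of the 10 genes after adjustment (2.1% of all genes) and DESeq2 called Csf3 alone (6.52% of all genes). Every one of the 10 log2 fold changes was negative, against 48.6% of all genes, with a median of -3.89 against 0.01 for all genes. In 5 genes (Cxcl1, Cxcl3, S100a8, S100a9 and Csf3) the lowest WT value exceeded the highest KO value, as in 8.74% of all genes. The count rested on single lesions. In edgeR it was 1 of 10, Csf3, without WT replicate 2 (background 5.86%). DESeq2 at the same threshold gave 4 of 10 there (Cxcl1, S100a8, S100a9 and Csf3), with 1188 of all 18923 genes lower. In edgeR it was also Csf3 alone without KO replicate 1 and without KO replicate 2, where 551 and 658 of all genes were lower. It rose to 9 of 10 without KO replicate 3 (background 8.66%), with Csf3r as the exception.

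**Figure D1:**
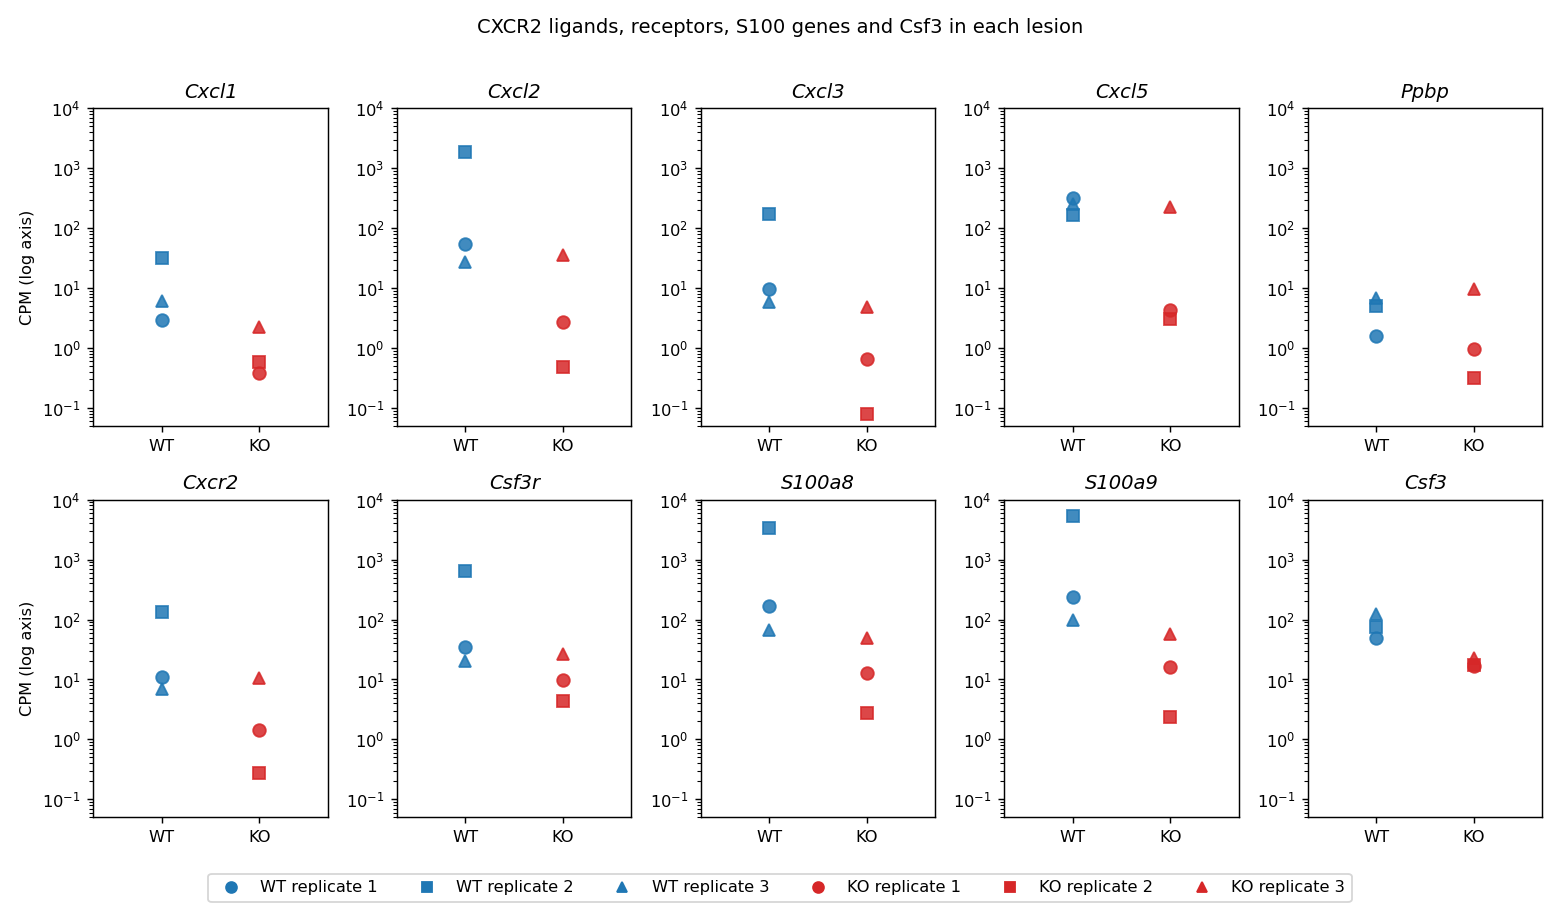
CPM of the 10 genes in each of the 6 lesions, on a log axis, with WT in blue, KO in red and 1 symbol per replicate. WT replicate 2 is the highest point for 7 genes, and KO replicate 3 lies above KO replicates 1 and 2 for all 10 genes.

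Cxcl1 (ENSMUSG00000029380.12) was a low-level transcript outside 1 lesion. It was measured at 2.99, 31.6 and 6.11 CPM in the WT lesions against 0.386, 0.596 and 2.21 CPM in the KO lesions. The groups did not overlap, and the KO values lay below 3 CPM. The means were 13.6 ± 15.7 CPM in WT and 1.06 ± 0.997 CPM in KO (SD, n = 3 each). The log2 fold change was -3.68 ± 1.16 (SE), with an unadjusted p of 0.0191 and an adjusted p of 0.328 by edgeR. An exact two-sided permutation test over lesions gave p = 0.1, the smallest that 3 lesions against 3 allow. Without WT replicate 2 the log2 fold change was -2.10 ± 0.84 (SE), with an unadjusted p of 0.0530 by edgeR, past the threshold no longer, whereas DESeq2 without that lesion gave an unadjusted p of 0.0194.

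Cxcl2 (ENSMUSG00000058427.11) had the widest range of the ligands. Its levels were 53.7, 1870.1 and 27.3 CPM in the WT lesions against 2.74, 0.477 and 35.9 CPM in the KO lesions. WT replicate 2 exceeded the next lesion by 34.8 times and held 94.0% of the CPM summed over the lesions. KO replicate 3 lay between WT replicates 1 and 3, so the groups overlapped (exact two-sided permutation test, p = 0.2). The log2 fold change of -5.64 ± 2.40 (SE) did not pass the threshold (unadjusted p = 0.0570, adjusted p = 0.344 by edgeR), and it was -1.63 ± 1.58 (SE) without WT replicate 2. Leaving out KO replicate 3 took it past the threshold, with -8.65 ± 2.93 (SE) and an unadjusted p of 0.0328.

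Cxcl3 (ENSMUSG00000029379.11) had the same order of lesions as Cxcl2, except that WT replicate 3 and KO replicate 3 changed places. It was measured at 9.54, 171 and 5.89 CPM in the WT lesions against 0.667, 0.0795 and 4.83 CPM in the KO lesions. The lowest value rested on 4 counts. The groups did not overlap, although WT replicate 3 and KO replicate 3 lay close together. Cxcl3 fell in KO lesions by 5.07 ± 1.96 (SE) on the log2 scale, with an unadjusted p of 0.0416 and an adjusted p of 0.332 by edgeR. Leaving out WT replicate 2 gave a change of -2.05 ± 1.41 (SE), with an unadjusted p of 0.205. Cxcl1, Cxcl2 and Cxcl3 are similar in sequence, and how reads that match more than 1 of them were counted is not given in the sources used here, so the split among them is uncertain.

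Cxcl5 (ENSMUSG00000029371.8) differed from the other ligands in which lesions were high. Its levels were 316, 166 and 256 CPM in the WT lesions against 4.39, 3.02 and 228 CPM in the KO lesions. The 3 WT lesions and KO replicate 3 thus had Cxcl5 at a similar level, and KO replicates 1 and 2 had little. WT replicate 2, the lesion richest in neutrophil markers, was the lowest of the WT lesions for Cxcl5. KO replicate 3 was 51.9 times as high as KO replicate 1. The log2 fold change was -1.65 ± 1.58 (SE), which did not pass the threshold (unadjusted p = 0.338, adjusted p = 0.620 by edgeR). Leaving out WT replicate 2 changed it little, to -1.87 ± 1.82 (SE). Leaving out KO replicate 3 gave -6.05 ± 0.44 (SE), with an unadjusted p of 4.46e-05 and an adjusted p of 0.112 by edgeR. In edgeR the call for Cxcl5 thus depended on this 1 lesion. With all 6 lesions, limma voom with quality weights gave -5.57 and passed (unadjusted p = 0.00056, adjusted p = 0.0650). A replicate block in edgeR gave -4.53 and did not pass (unadjusted p = 0.0688).

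Ppbp (ENSMUSG00000029372.8), which lies next to Cxcl5, showed no difference past the threshold with all 6 lesions. It was measured at 1.62, 5.0 and 6.88 CPM in the WT lesions against 0.982, 0.318 and 9.71 CPM in the KO lesions. KO replicate 3 was the highest of all 6 lesions, and the groups overlapped (exact two-sided permutation test, p = 0.5). The log2 fold change was -0.30 ± 1.23 (SE), with an unadjusted p of 0.819 by edgeR, and its sign turned without WT replicate 3, without KO replicate 1 and without KO replicate 2. Leaving out KO replicate 3 took Ppbp past the threshold, with a log2 fold change of -2.78 ± 0.88 (SE) and an unadjusted p of 0.0258 by edgeR. Of 8 platelet and megakaryocyte markers, 4 were tested and 0 passed the threshold with all lesions. Without KO replicate 3, 2 of 5 tested were lower (8.66% of all genes). Pf4, a chemokine of platelet granules that does not signal through CXCR2, was measured at 16.2, 31.8 and 13.2 CPM in the WT lesions against 4.91, 4.69 and 19.7 CPM in the KO lesions. Erythroid markers, a sign of blood in the tissue, summed to 101, 381 and 621 CPM in the WT lesions against 80.7, 54.5 and 726 CPM in the KO lesions. Ppbp had the same 3 highest lesions as the erythroid markers, in the same order: KO replicate 3, WT replicate 3 and WT replicate 2. The part of blood in the Ppbp level was not tested.

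Both receptors were highest in the lesion richest in neutrophil markers. Cxcr2 (ENSMUSG00000026180.10) was measured at 11.0, 135 and 6.92 CPM in the WT lesions against 1.44, 0.278 and 10.4 CPM in the KO lesions. KO replicate 3 lay between WT replicates 1 and 3, and the log2 fold change of -3.66 ± 1.71 (SE) missed the threshold (unadjusted p = 0.0763, adjusted p = 0.365 by edgeR). Csf3r (ENSMUSG00000028859.15) was measured at 34.9, 645 and 20.1 CPM in the WT lesions against 9.95, 4.33 and 26.7 CPM in the KO lesions. It passed the threshold with a log2 fold change of -4.09 ± 1.57 (SE, unadjusted p = 0.0400, adjusted p = 0.332 by edgeR), although KO replicate 3 lay above WT replicate 3. In the fit of 5 lesions without WT replicate 2, the log2 fold changes were -1.15 ± 1.34 (SE) for Cxcr2 and -1.01 ± 0.76 (SE) for Csf3r, and neither passed. In the fit without KO replicate 3, Cxcr2 passed with -5.88 ± 1.98 (SE, unadjusted p = 0.0324 by edgeR) and Csf3r did not, with -5.03 ± 2.01 (SE, unadjusted p = 0.0558).

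S100a8 and S100a9 had the highest levels per length of the 10 genes in WT replicate 2. S100a8 (ENSMUSG00000056054.10) was measured at 169, 3406 and 67.4 CPM in the WT lesions against 12.8, 2.74 and 49.0 CPM in the KO lesions. S100a9 (ENSMUSG00000056071.13) was measured at 240.1, 5263 and 98.4 CPM in the WT lesions against 16.1, 2.38 and 57.8 CPM in the KO lesions. The groups did not overlap in either gene (p = 0.1 for each by an exact two-sided permutation test). S100a8 fell by 5.82 ± 1.98 (SE) and S100a9 fell by 6.20 ± 2.08 (SE) on the log2 scale, with unadjusted p-values of 0.0260 and 0.0248 and an adjusted p of 0.328 for each by edgeR. When WT replicate 2 was left out, the changes were -2.45 ± 1.14 (SE) and -2.73 ± 1.22 (SE), with unadjusted p-values of 0.0827 and 0.0729, so both lost the call in edgeR while the groups still did not overlap. DESeq2, which gave neither gene a p with all lesions, called both without that lesion, with unadjusted p-values of 0.0237 and 0.0159.

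Csf3 (ENSMUSG00000038067.3) was the 1 gene of the 10 that stayed past the threshold with any lesion left out. It was measured at 48.7, 75.2 and 125 CPM in the WT lesions against 16.8, 17.1 and 22.9 CPM in the KO lesions. The groups did not overlap, the KO lesions were close to each other, and the highest lesion was WT replicate 3, not the one richest in neutrophil markers. The means were 82.8 ± 38.5 CPM in WT and 18.9 ± 3.41 CPM in KO (SD, n = 3 each), and an exact two-sided permutation test gave p = 0.1. Csf3 fell by 2.13 ± 0.37 (SE) on the log2 scale, with an unadjusted p of 0.00116 and an adjusted p of 0.321 by edgeR. Without WT replicate 2 the change was -2.19 ± 0.42 (SE), with an unadjusted p of 0.00302 and an adjusted p of 0.0942. With DESeq2 the adjusted p was 2.19e-05, and 0.000132 without WT replicate 2. Csf3 passed the threshold as lower in KO in each of the 14 alternatives. Its log2 fold change was -2.40 to -1.73 when lesions were left out in turn, and adjusted p-values were 2.19e-05 to 0.668 over the alternatives.

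**Figure D2:**
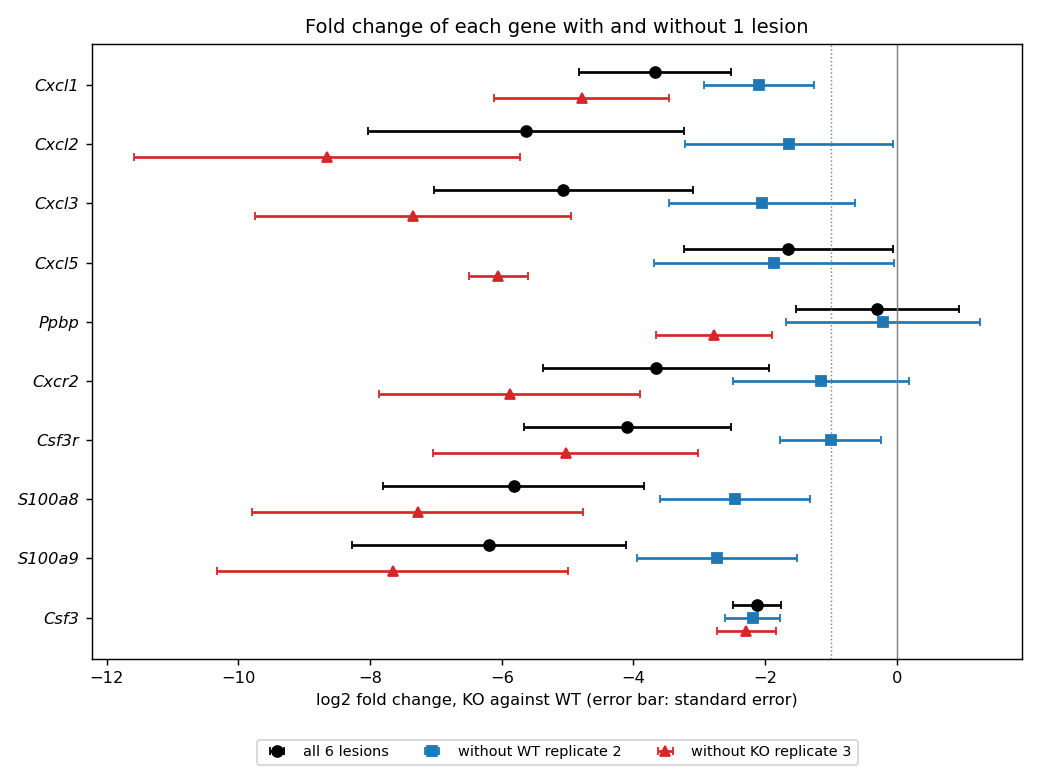
Log2 fold change of KO against WT for each gene by edgeR, with all 6 lesions (black), without WT replicate 2 (blue) and without KO replicate 3 (red), and error bars of 1 standard error. The dotted line marks a log2 fold change of -1. Csf3 stays near -2 in all 3 fits, Cxcl5 moves away from the other fits when KO replicate 3 is left out, and Cxcl2, Csf3r, S100a8 and S100a9 move toward 0 when WT replicate 2 is left out.

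Per length, the leading ligand was not the same in all lesions. CPM per kilobase of exon was used to compare genes. Cxcl5 was the highest of the 5 ligands in WT replicates 1 and 3, with 170 and 137 CPM per kilobase against 26.0 and 13.2 for Cxcl2, the next. In WT replicate 2 the order turned, with Cxcl2 at 904 and Cxcl5 at 89.1 CPM per kilobase. KO replicate 3 resembled WT replicates 1 and 3, with 122 CPM per kilobase for Cxcl5 and 17.4 for Cxcl2. In KO replicates 1 and 2 Cxcl5 was still the highest ligand but stood at 2.35 and 1.62 CPM per kilobase, a level that Csf3 exceeded there with 11.9 and 12.1. The order within 1 lesion has no replicate error of its own.

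The share of a gene held by 1 lesion set the 10 genes apart from each other. WT replicate 2 held 72.0% of the summed CPM of Cxcl1, 94.0% of Cxcl2, 89.0% of Cxcl3, 81.8% of Cxcr2, 87.0% of Csf3r, 91.9% of S100a8 and 92.7% of S100a9. It held 17.1% of Cxcl5, 20.4% of Ppbp and 24.6% of Csf3, near the 16.7% that an equal share of 6 lesions gives. The highest lesion was WT replicate 2 for 7 of the 10 genes, against 24.2% of all genes tested. KO replicate 3 lay above the other KO lesions for all 10 genes, against 37.7% of all genes.

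**Figure D3:**
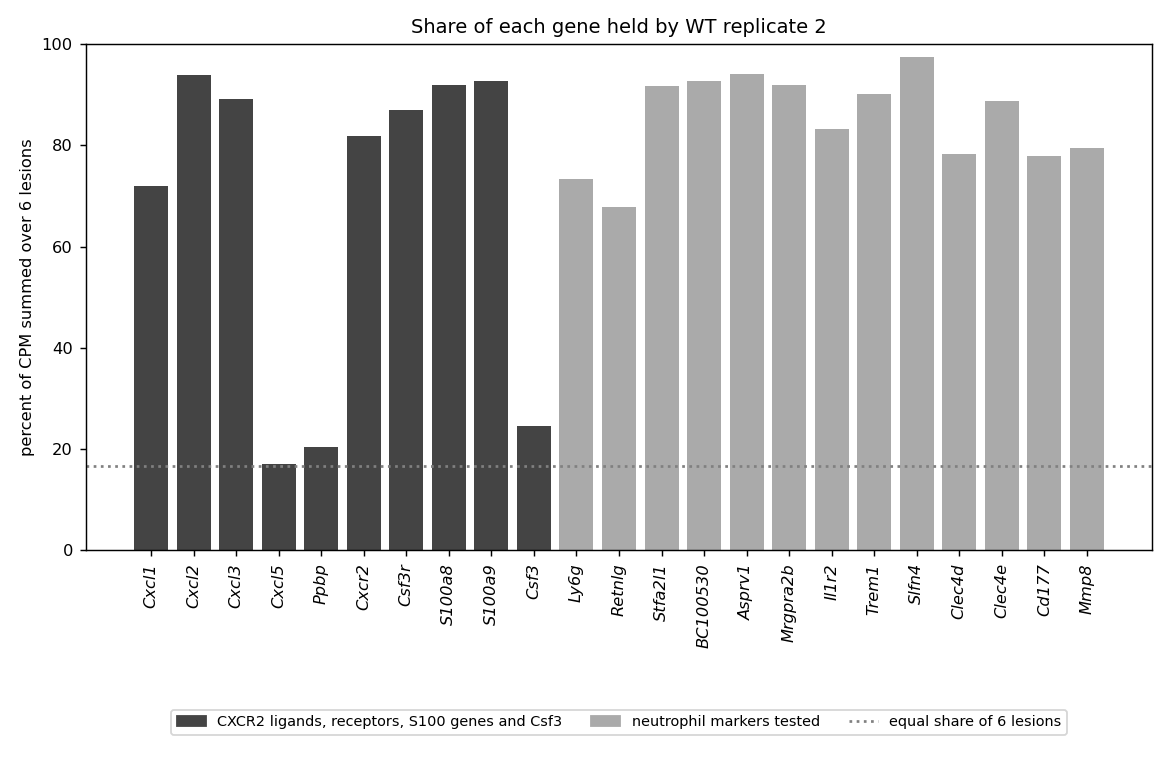
Percent of the CPM summed over 6 lesions that WT replicate 2 held, for the 10 genes (dark bars) and for 13 neutrophil markers tested (light bars), with an equal share of 16.7% as a dotted line. Cxcl5, Ppbp and Csf3 lie near the line, and the other 7 genes lie between 72.0% and 94.0%, in the range of the neutrophil markers.

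Neutrophil markers that are not among the 10 genes had the same lesion at the top. Of 16 such markers, 13 were tested. All 13 were highest in WT replicate 2 (24.2% of all genes), which held 67.9% to 97.5% of each. Of these 13, 9 were lower in KO by the threshold of the study with all lesions (5.85% of all genes). Without WT replicate 2 there were 0 (5.86% of all genes). The median log2 fold change was -4.70 with all lesions and -1.53 without WT replicate 2. Ly6g, the surface protein that defines mouse neutrophils, was measured at 1.13, 15.1 and 1.41 CPM in the WT lesions against 1.05, 1.19 and 0.708 CPM in the KO lesions. Outside WT replicate 2, Ly6g thus differed little between lesions. Retnlg, a secreted neutrophil protein, was measured at 15.6, 242 and 17.3 CPM in the WT lesions against 37.2, 19.3 and 24.9 CPM in the KO lesions, so that KO lesions lay above WT replicates 1 and 3. Asprv1, a protease gene of mature neutrophils that squamous skin also expresses, was measured at 16.5, 414 and 3.97 CPM in the WT lesions against 0.667, 0.199 and 4.29 CPM in the KO lesions. These markers therefore did not rank the KO lesions in the same way.

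The ligands were set beside the neutrophil markers of the same lesion as the log2 CPM of the gene minus the mean log2 CPM of the 13 tested markers, with no test. That mean was 2.32, 6.72 and 1.77 in the WT lesions against 0.27, -0.66 and 1.80 in the KO lesions. Csf3r lay between 2.56 and 3.05 above it in all 6 lesions, a span of 0.48, while the marker mean itself spanned 7.37. The span of Csf3r was 1.34 when only Ly6g, Retnlg and Asprv1 stood for the neutrophils, and 0.70 with a prior count of 0.5. The difference between groups had no fixed sign, with KO minus WT at 0.26, -0.45 and 0.50 under the 3 settings, and in the last of these the KO lesions lay above the WT lesions without overlap. Cxcl2 was 3.43, 4.15 and 3.01 above the marker mean in the WT lesions against 1.20, -0.29 and 3.37 in the KO lesions, so KO replicate 3 lay within the WT range. For Cxcl3 the values were 0.94, 0.70 and 0.80 in the WT lesions against -0.77, -2.40 and 0.48 in the KO lesions. Cxcl3, S100a8 and S100a9 were thus lower relative to the markers in every KO lesion than in any WT lesion, by means of 1.71, 1.68 and 2.12. The groups stayed apart in these 3 genes when only Ly6g, Retnlg and Asprv1 stood for the neutrophils and when the prior count was 0.5. The size of the Cxcl3 difference depended on single KO lesions, with -0.96 without KO replicate 2, where Cxcl3 had 4 counts, and -2.40 without KO replicate 3.

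The distance of Cxcl1 from the markers spanned 2.58 over the lesions, less than the 4.45 of Cxcl2 and the 3.34 of Cxcl3. Cxcl1 was -0.72, -1.73 and 0.85 relative to the marker mean in the WT lesions against -1.50, 0.01 and -0.63 in the KO lesions. The difference between the group means was -0.18, smaller than the SD of 0.76 among the KO lesions. That difference was -0.89 with only Ly6g, Retnlg and Asprv1, and -0.78 without WT replicate 2. It was 0.51 without WT replicate 3 and 0.22 without KO replicate 1. Cxcl5 was 5.99, 0.66 and 6.23 above the marker mean in the WT lesions against 1.87, 2.27 and 6.03 above it in the KO lesions. WT replicate 2 had the least Cxcl5 of all lesions relative to this mean. With only Ly6g, Retnlg and Asprv1, KO replicate 1 was lowest at 0.530, next to 0.534 in WT replicate 2 and 0.775 in KO replicate 2. Csf3 was lowest relative to the marker mean in WT replicate 2, at -0.48, against 2.71 to 5.19 in the other 5. The mean of Csf3 was 1.09 higher in KO than in WT on this scale, with overlapping groups. That direction rested on WT replicate 2, since the difference of Csf3 was -0.48 without this lesion. Ppbp was also higher in KO relative to the 13 markers, by 1.79, and by 0.42 without WT replicate 2. Cxcr2 was lower in KO by 0.56 on this scale. The groups overlapped for both Ppbp and Cxcr2.

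**Figure D4:**
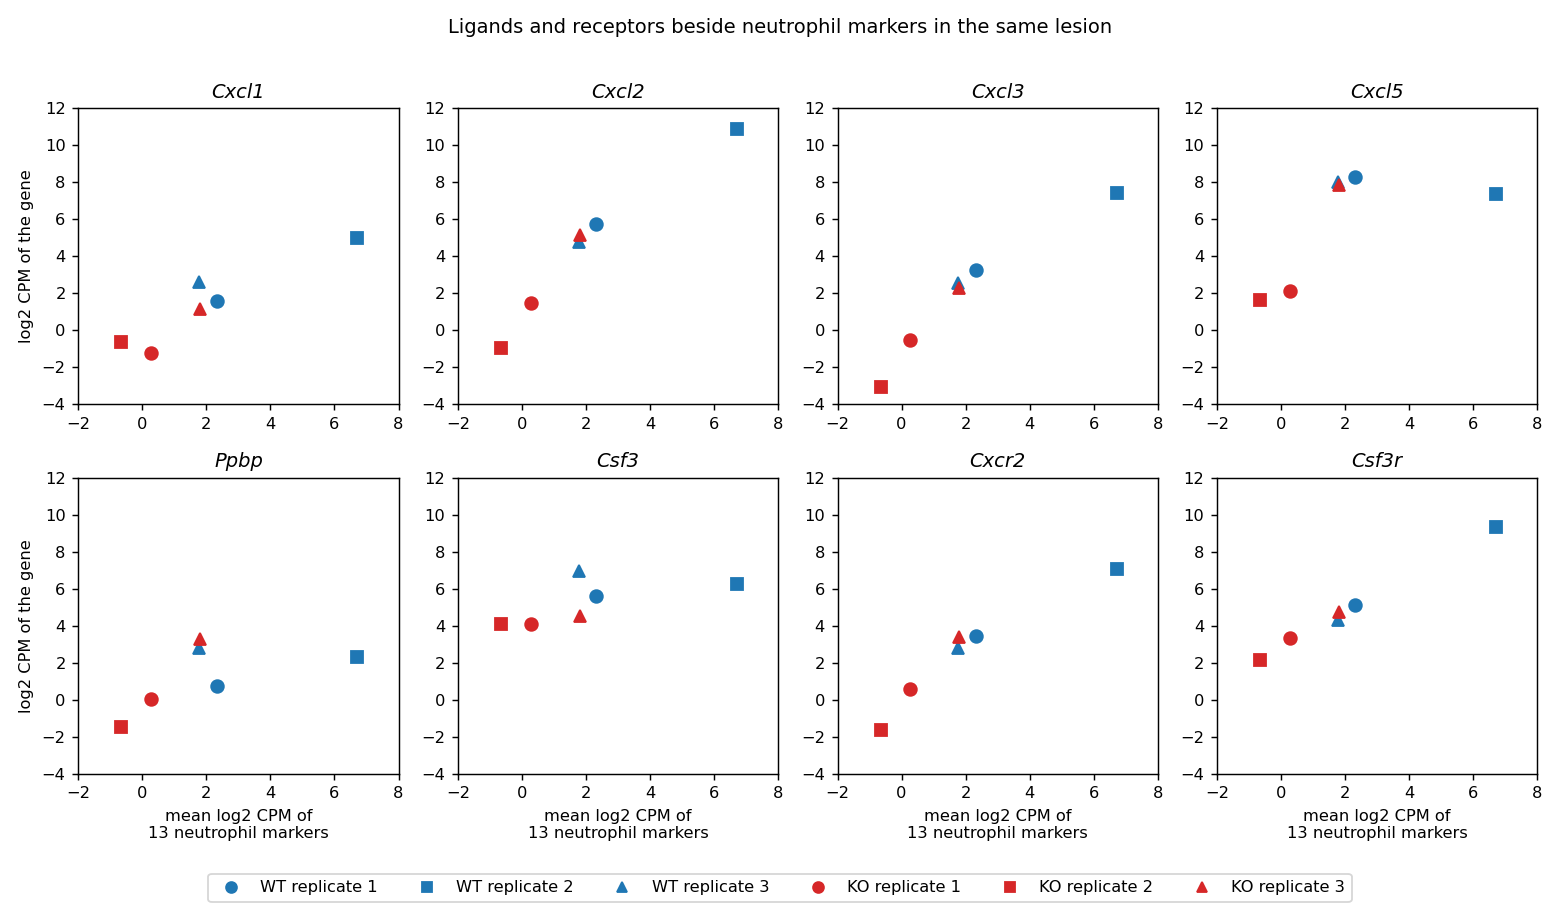
Log2 CPM of each ligand, of Csf3 and of both receptors (vertical axis) against the mean log2 CPM of 13 neutrophil markers in the same lesion (horizontal axis), with WT in blue and KO in red. Csf3r, Cxcl2 and Cxcl3 are highest, as the markers are, in WT replicate 2 at 6.72, whereas in that lesion Cxcl5 is lower than in WT replicates 1 and 3 and Csf3 lies between them.

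Other genes of neutrophil attraction and adhesion were read as a list of 25, of which 22 were tested. Of these, 10 were lower in KO by the threshold of the study (5.85% of all genes) and 0 were higher (3.1% of all genes). The median log2 fold change was -1.44. The 10 were the chemokine receptors Cxcr1 and Cxcr4, the endothelial adhesion molecules Sele and Icam1, the leukocyte adhesion molecules Itgal and Selplg, the formyl peptide receptors Fpr1 and Fpr2, the leukotriene B4 receptor Ltb4r1, and the cytokine Il17c. Without WT replicate 2, only Il17c of the 22 passed (5.86% of all genes). Il17c, an epithelial cytokine of the IL-17 family, was measured at 1.05, 1.33 and 4.40 CPM in the WT lesions against 0.105, 0.119 and 0.333 CPM in the KO lesions. It was highest in WT replicate 3, as Csf3 was, and its log2 fold change was -3.59 ± 0.81 (SE) with all lesions (adjusted p = 0.321 by edgeR) and -3.86 without WT replicate 2. Il17a, made by T cells and innate lymphocytes, was too low to be tested, with 0.726, 7.61 and 0.0854 CPM in the WT lesions against 0, 0 and 0.167 CPM in the KO lesions. T cell markers summed to 28.1, 80.3 and 30.1 CPM in the WT lesions against 7.35, 5.01 and 22.1 CPM in the KO lesions, and 5 of 6 were lower in KO with all lesions and 1 of 6 without WT replicate 2. Of 6 B and plasma cell markers, 5 were lower with all lesions and 2 without WT replicate 2. The background for the T cell and for the B and plasma cell markers was 5.85% and 5.86% of all genes in these fits. Of the eosinophil and mesothelium markers tested, 0 of 4 and 0 of 6 passed. Of 8 endometrial stroma markers tested, 3 were higher in KO with all lesions (3.1% of all genes) and 1 without WT replicate 2. Of 6 squamous epithelial markers tested, 3 were lower with all lesions and 1 without WT replicate 2. Cxcl12, the Cxcr4 ligand that holds neutrophils in bone marrow, had a log2 fold change of 0.10 ± 0.61 (SE), which did not pass.

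Inducers and regulators of the CXCR2 ligands and of G-CSF made up a list of 18 genes, all tested. Of these, 9 were lower in KO (5.85% of all genes) and 0 were higher (3.1% of all genes). The median log2 fold change was -1.90, and 17 of the 18 were highest in WT replicate 2 (24.2% of all genes). The 9 were the cytokines Il1a, Il1b and Lif, the NF-kappa B inhibitors and feedback genes Nfkbia, Nfkbiz and Tnfaip3, the RNA-decay factors Zc3h12a and Zfp36, and the cytokine signalling inhibitor Socs3. Without WT replicate 2, 5 of them still passed (Il1a, Nfkbiz, Tnfaip3, Zc3h12a and Lif), against 5.86% of all genes, and the median was -0.72. Il1b, a cytokine of activated myeloid cells, was measured at 82.4, 2165 and 46.6 CPM in the WT lesions against 9.98, 1.55 and 47.2 CPM in the KO lesions, and lost the call without that lesion. Il1a was measured at 45.1, 328 and 58.5 CPM in the WT lesions against 24.8, 17.2 and 28.0 CPM in the KO lesions. Its groups did not overlap, and its log2 fold change was -2.62 with all lesions and -1.15 without WT replicate 2. Markers of macrophages, another source of these cytokines, summed to 1199, 2763 and 1191 CPM in the WT lesions against 770.4, 564 and 1428 CPM in the KO lesions. Of these 9 markers, 0 passed the threshold with all lesions and 6 were lower without KO replicate 3 (8.66% of all genes). The part of macrophages in the cytokine levels was not tested.

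A list of neutrophil genes, of granules and of the NADPH oxidase among others, did not move as 1 group. Of 18, 14 were tested, and 4 were lower in KO (5.85% of all genes). These were Ngp, Cd177 and the oxidase subunits Ncf1 and Ncf4. Without WT replicate 2, 0 were lower (5.86% of all genes). The primary granule genes Elane and Ctsg, which are transcribed in bone marrow precursors, stayed below 1 CPM in every lesion. Mpo, another primary granule gene, was measured at 1.15, 1.35 and 1.09 CPM in the WT lesions against 0.456, 0.119 and 0.708 CPM in the KO lesions. Prtn3 stood at 5.68, 9.18 and 5.38 CPM in the WT lesions against 4.82, 6.28 and 25.3 CPM in the KO lesions, and neither passed the threshold. Ltf and Lcn2, granule genes that uterine epithelium also makes, were among the genes with high counts in all lesions and did not follow the neutrophil markers. Ltf was measured at 19058, 9882 and 15526 CPM in the WT lesions against 33570.4, 25488 and 15673 CPM in the KO lesions, with the lowest value in the lesion richest in neutrophil markers.

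As a description, the genes whose log2 CPM was most like that of 3 of the 10 genes over the 6 lesions were listed among 15036 genes with a mean of at least 1 CPM. The points share library scaling, and the genes were picked as the highest of so many. For Cxcr2 these included C1qc and Ly6e, with Pearson r of 1.00 and 0.999. For Cxcl5 they were Eif4e3, Pacs2 and Brf2, with r of 0.998, 0.997 and 0.994. For Cxcl1 they were Ifit1, Ugcg and Nub1, with r of 0.997, 0.995 and 0.994. C1qc, a complement gene of macrophages, was measured at 165, 328 and 143 CPM in the WT lesions against 96.6, 63.5 and 165 CPM in the KO lesions, a much narrower range than that of Cxcr2.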

How the data were processed

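RNA of 3 WT and 3 KO lesions was sequenced as 1 stranded mRNA library each. The authors deposited raw read counts per gene, made after trimming, mapping and counting. The submitters' processing notes name Trimmomatic, featureCounts, DESeq2 and GRCm39, while the study's methods name GRCm38; the aligner, the strand setting and the treatment of reads with several matches are not given in the sources used here. Coordinates are therefore given only for RefSeq promoter windows (GRCm38.p6). The 6 tables per sample equalled the table of the series. Of the 56884 identifiers, 51948 matched GENCODE M21 after the version was dropped and 35 with it, and those without a symbol held 3.04% to 3.56% of counts. Of the counts from 1 to 199, 86.6% were even numbers, so a low count may hold fewer fragments than its size.

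Counts were tested with edgeR 4.0.16 in R 4.3.3 (filterByExpr, 18177 genes, TMM factors from 0.962 to 1.05, quasi-likelihood test, genotype as the only term). A gene was called at an unadjusted p under 0.05 with a log2 fold change beyond 1, and adjusted p-values are by Benjamini-Hochberg over all tested genes. Standard errors were derived by dividing each log2 fold change, without its sign, by the root of the F statistic. CPM used TMM factors, log2 CPM used a prior count of 2, and CPM per kilobase used the merged exons of GENCODE M21. Alternatives were other scalings and filters, DESeq2 1.42.0, limma voom (limma 3.58.1), a replicate block and each lesion left out. The study's methods describe 3 donors a group and a fragment of 1 donor placed in 1 recipient, though the labels tie no lesion to its animals, and counts without molecular identifiers cover counting error only. The 10 genes, the lists and the tests were chosen with earlier results of these data known. The genes named are those 10, Dnmt3a, defining neutrophil markers and genes of the attraction list, and the 3 genes most like each of Cxcr2, Cxcl5 and Cxcl1, of which 1 is not reported here. Pf4, Il1a, Il1b, Ltf and C1qc were given values after theirs were seen, as were the genes listed as called.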

Additional observations from a re-analysis of the deposited data

How the results depend on the processing

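The direction of every one of the 10 genes was kept in all alternatives except for Ppbp, whose log2 fold change was 0.15 without WT replicate 3, 0.17 without KO replicate 1 and 0.25 without KO replicate 2, in a range of -2.78 to 0.25 with lesions left out. Of the 10 genes, 6 were lower with all lesions, 2 with DESeq2 and 4 with DESeq2 without WT replicate 2. The count was 5 with at least 10 counts in every library, where Cxcl3 was not tested, and 7 with no filter beyond 1 count. It was 8 with limma voom with quality weights, which called Cxcl2, Cxcl5 and Cxcr2 as well and did not call Csf3r. It was 1 to 9 when lesions were left out in turn. Over all genes, 1064 were lower and 564 higher. No filter beyond 1 count gave 1652 lower, and voom gave 1523 lower and 855 higher. Leaving out lesions in turn gave 551 to 1650 lower and 280 to 1021 higher. Upper quartile scaling gave all genes a median log2 fold change of 0.11, against 0.01 with TMM, and 6 of the 10 genes remained lower. DESeq2 gave no p in 7 cases of a gene and a setting. The labels give replicate numbers but do not say that they pair the lesions. Deviations of same-numbered lesions correlated at 0.03, -0.15 and -0.20, which cannot settle this with 3 lesions a group. With a replicate block, 2 of the 10 genes were lower, with 573 genes lower and 372 higher overall. The cause of these changes was not tested. Relative to neutrophil markers, the group differences of the 5 ligands and Csf3 moved in both alternatives by less than the larger group SD. That of Csf3r moved by more. These SDs reached 3.15 for Cxcl5, so the comparison says little of how firm the differences are. The change of marker set moved every gene by the same amount, with Cxcl1 from -0.18 to -0.89 and Csf3 from 1.09 to 0.38. The Cxcl1 difference turned its sign with a prior count of 0.5. With lesions left out in turn, the sign turned for Cxcl1, for Cxcl5 (0.07 without WT replicate 3) and for Csf3 (-0.48 without WT replicate 2). With 3 lesions a group, 1 lesion decides most calls, and counts below about 10, as in Cxcl3 of KO replicate 2, give little precision.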
